A study of Homo sapiens with 4 samples.

Results

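The metallothioneins MT1E, MT1F, MT1G, MT1H, MT1M, MT1X and MT2A, together with the metal sensor MTF1 and the zinc exporter SLC30A1, were examined in hepatic cancer stem cells (HCSC) and in the hepatocellular carcinoma (HCC) cells from which they were derived. These 9 genes were picked by symbol in the gene count files. Rows were found for 4 of them (MT2A, MT1X, MTF1 and SLC30A1) among 16370 genes, and the other 5 (MT1E, MT1F, MT1G, MT1H and MT1M) had no row and were not analysed here. MT2A, MTF1 and SLC30A1 were listed for both pairs of cell lines, and MT1X was listed for the Huh7 pair only.

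Gene expression was measured by sequencing of mRNA libraries from 4 human hepatoma cultures, with 1 library per cell line. Hep3B and Huh7, the HCC group, are established hepatoma cell lines. Hep3B-C and Huh7-C, the HCSC group, are stem-like cultures grown from Hep3B and Huh7. No drug, metal or gene transfer was named for any of the cultures, and the medium used to grow the HCSC lines was not given in the sources used here. Since every line gave 1 library, the effect of the group cannot be told apart from that of the culture or of the library, and no difference below has a replicate check.

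Metallothioneins are small, cysteine-rich proteins that bind zinc and copper and buffer the free metal in the cell. Their genes lie in a cluster, and in liver they are strongly induced by zinc, cadmium and glucocorticoids. MTF1 is a zinc finger transcription factor that senses zinc and binds metal response elements in the promoters of the metallothionein genes and of SLC30A1, which carries zinc out of the cell across the plasma membrane.

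The coding sequences of both metallothioneins with counts are shown because their likeness bears on how reads could be told apart. They were read from GENCODE release 29 transcripts, without the stop codon, and are exonic parts of MT2A (GRCh38 chr16:56608199-56609497, plus strand) and MT1X (chr16:56682424-56684196, plus strand). Capitals mark the in-frame TGC and TGT codons, which encode cysteine.
MT2A: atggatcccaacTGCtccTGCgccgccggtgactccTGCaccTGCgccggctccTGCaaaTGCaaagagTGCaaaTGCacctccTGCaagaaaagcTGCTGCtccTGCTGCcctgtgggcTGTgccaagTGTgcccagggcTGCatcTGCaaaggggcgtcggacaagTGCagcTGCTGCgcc
MT1X: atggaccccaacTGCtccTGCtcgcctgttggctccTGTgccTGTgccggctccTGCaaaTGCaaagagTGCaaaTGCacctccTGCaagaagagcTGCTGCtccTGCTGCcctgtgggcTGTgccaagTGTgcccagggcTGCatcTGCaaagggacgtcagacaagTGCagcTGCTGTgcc
Each had 20 cysteine codons among 61 codons, and the sequences were identical at 92.3% of their 183 positions. The same number of cysteine codons was found in the other 5 metallothionein genes. Of the 148 windows of 36 bases in the MT1X coding sequence, 126 (85.1%) occurred without a mismatch in a transcript of another annotated gene. For MT2A this held for 78 of 148 windows (52.7%), and for the other 5 genes the share ran from 25% (MT1F) to 57.4% (MT1H). A short read from most of the MT1X coding sequence could thus be placed on more than a single gene, and how the authors treated such reads was not stated. Counts of single metallothionein genes are uncertain for that reason, and the sum over the listed metallothioneins is given beside them.

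The promoters of the metallothioneins with counts and of SLC30A1 are shown for their metal response elements. The 250 bases before the annotated start site were taken from RefSeq (GRCh38.p14), which held an entry for 5 of the 9 genes (MT2A, MT1X, MT1H, MTF1 and SLC30A1) and whose start sites differ from the GENCODE gene ends given here. Capitals mark the core of the metal response element, searched as TGCACNC and TGCGCNC on both strands.
MT2A, chr16:56608334-56608583, plus strand: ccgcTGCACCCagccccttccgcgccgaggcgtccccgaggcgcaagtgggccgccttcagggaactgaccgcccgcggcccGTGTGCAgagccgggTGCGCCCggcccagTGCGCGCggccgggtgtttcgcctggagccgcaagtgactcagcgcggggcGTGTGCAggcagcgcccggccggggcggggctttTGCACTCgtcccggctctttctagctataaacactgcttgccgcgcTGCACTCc
MT1X, chr16:56682220-56682469, plus strand: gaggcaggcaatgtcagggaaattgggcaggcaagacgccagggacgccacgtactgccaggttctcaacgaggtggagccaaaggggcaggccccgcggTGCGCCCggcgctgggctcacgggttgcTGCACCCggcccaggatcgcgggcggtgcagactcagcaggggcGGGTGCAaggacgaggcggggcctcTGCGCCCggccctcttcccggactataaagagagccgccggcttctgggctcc
SLC30A1, chr1:211579162-211579411, minus strand: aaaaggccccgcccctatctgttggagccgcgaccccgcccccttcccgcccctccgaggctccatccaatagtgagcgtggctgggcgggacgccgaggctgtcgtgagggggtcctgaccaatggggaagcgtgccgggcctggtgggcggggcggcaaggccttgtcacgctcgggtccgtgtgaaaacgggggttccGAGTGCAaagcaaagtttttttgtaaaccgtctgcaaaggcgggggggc
Over the whole window, from 250 bases before to 50 bases after the start site, MT2A had 8 matches, MT1H 8, MT1X 4, SLC30A1 2 and MTF1 0. Of 35116 promoters of the same length, 29.6% had at least 1 match and 0.601% had 4 or more. As many matches as in MT2A and MT1H were found in 0.0199% of promoters, and as many as in SLC30A1 in 8.6%. In the metallothionein promoters, a match began at a similar distance from the start site, 54 bases before it in MT2A and 53 bases before it in MT1X and MT1H. A match is a description of the letters and not a site shown to be bound.

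**Figure D1:**
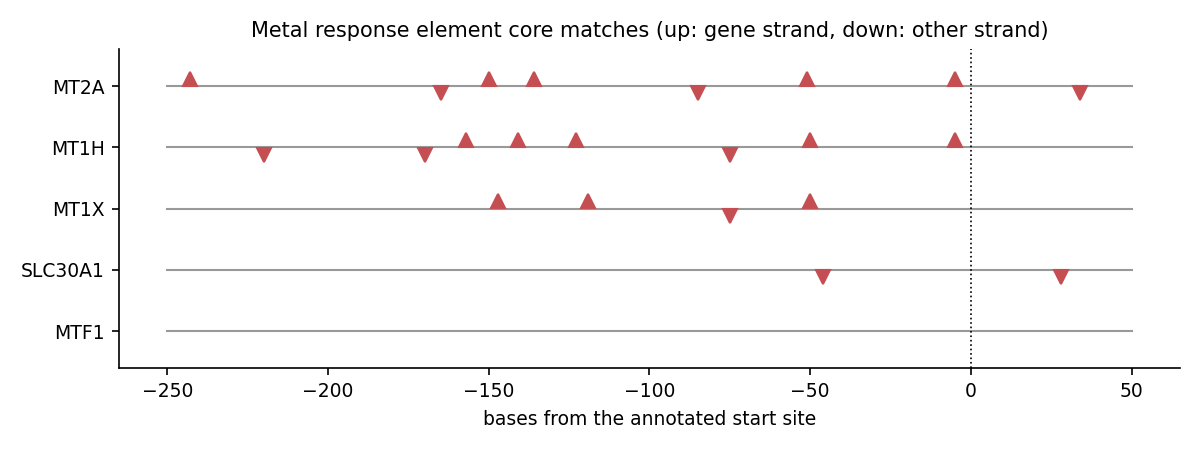
Positions of the metal response element core (TGCACNC or TGCGCNC) in 5 promoters, in bases from the annotated start site (x axis, dotted line at the start). Each triangle is a match, pointing up for the strand of the gene and down for the other strand; MT2A and MT1H had 8 matches each, MT1X 4, SLC30A1 2 and MTF1 0.

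Total gene counts ran from 2896418 in Hep3B to 4641927 in Hep3B-C, and Huh7 (4537510) and Huh7-C (4333808) lay between them. Levels are given as CPM (counts scaled to the library's total count on genes), and between genes as RPKM, which is CPM per kilobase of gene length. A level of 3 counts, chosen as the floor under which a gene is not read as present, corresponds to 1.04 CPM in Hep3B and between 0.646 and 0.692 CPM in the other libraries. Intervals of levels and of ratios are exact 95% intervals, and those of a difference between the pairs are normal approximations from the SE. All of them cover counting error only. All 7 hepatocyte markers examined had counts in every library, with summed levels from 26487 CPM in Huh7-C to 61458 CPM in Hep3B-C. AFP, a fetal liver protein used as a hepatoma marker, stood at 5584 CPM in Hep3B and 905 CPM in Hep3B-C, but at 5.73 CPM in Huh7 and 2.77 CPM in Huh7-C. GPC3, the other fetal liver and hepatoma marker examined, stood at 995 CPM in Hep3B and 24.5 CPM in Huh7. ALB, which encodes albumin, had 482 counts in Huh7 against 56598 in Hep3B. The lines were taken as labelled, and their identity was not tested. Of the markers of other cell types, 1 or 2 of the 3 endothelial genes had counts in each library (2.76 to 3.97 CPM in sum, and 21.5 CPM in Huh7-C through PECAM1), and CDH5 had no row. Of the 4 fibroblast and stellate genes, 2 or 3 had counts (1.08 to 4.19 CPM in sum, and 15 CPM in Huh7-C through COL3A1), and DCN had no row. Of the 3 leukocyte genes only CD68 had counts (99.8 to 270 CPM), and the cholangiocyte genes summed to 58.8 to 280 CPM. Their part in the results below was not tested.

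Of the 7 metallothioneins, 1 was listed in the Hep3B pair (MT2A) and 2 in the Huh7 pair (MT2A and MT1X), and whether the others were at 0 or left out cannot be told. The sums below therefore cover the listed genes only, and not the same genes in both pairs. Their counts were few in the Hep3B pair and higher in the Huh7 pair, where they were lower in the HCSC line than in the HCC line. Summed over the listed genes, Hep3B had 3 counts (1.04 CPM) and Hep3B-C had 7 (1.51 CPM), whereas Huh7 had 124 (27.3 CPM) and Huh7-C had 51 (11.8 CPM). The sum in Hep3B was at the floor of 3 counts, and the intervals of Hep3B (0.214 to 3.03 CPM) and Hep3B-C (0.606 to 3.11 CPM) overlapped. Those of Huh7 (22.7 to 32.6 CPM) and Huh7-C (8.76 to 15.5 CPM) did not overlap. The log2 ratio of the sums (HCSC/HCC) was -1.21 in the Huh7 pair, with an interval from -1.72 to -0.73. In the Hep3B pair it was 0.42, with an interval from -1.59 to 3.13, so neither a rise nor a fall was detectable at this depth. Genes with 20 or more counts had a median log2 ratio of 0.06 in the Huh7 pair and -0.55 in the Hep3B pair. In these bulk cultures, fewer cells with a transcript and less of it per cell cannot be told apart.

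MT2A (Entrez 4502), a widely expressed metallothionein, carried most of these counts. It had 3 counts in Hep3B and 7 in Hep3B-C, which are the sums given above. It had 93 counts in Huh7 and 35 in Huh7-C, so that its level was 1.04 CPM in Hep3B, 1.51 CPM in Hep3B-C, 20.5 CPM in Huh7 and 8.08 CPM in Huh7-C. Huh7 was the highest library and Huh7-C the second, each apart from its neighbour in the order beyond counting error, whereas the levels of Hep3B-C and Hep3B at the bottom did not differ beyond it. Per gene length, MT2A (418 bases) reached 49 RPKM in Huh7, above MT1X at 16.9 RPKM, SLC30A1 at 7.32 RPKM and MTF1 at 2.32 RPKM. In Hep3B it was at 2.48 RPKM on 3 counts, with an interval from 0.511 to 7.241 RPKM. That interval overlapped those of SLC30A1 at 6.33 RPKM (4.457 to 8.725) and MTF1 at 2.6 RPKM (1.983 to 3.345).

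MT1X (Entrez 4501), a further member of the cluster, had 31 counts in Huh7 and 16 in Huh7-C, or 6.83 and 3.69 CPM. The intervals of both levels overlapped, with 4.64 to 9.7 CPM in Huh7 and 2.11 to 6 CPM in Huh7-C. It had no row in the Hep3B pair, where its level was not analysed here. The pseudogene MT1IP, a further locus of the cluster, had between 0 and 2 counts in the 4 libraries.

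MTF1 (Entrez 4520; GRCh38 chr1:37809567-37859620, minus strand) was present at a similar level in both HCC lines. It had 60 counts in Hep3B (20.7 CPM), 39 in Hep3B-C (8.4 CPM), 84 in Huh7 (18.5 CPM) and 104 in Huh7-C (24 CPM). Only Hep3B-C stood apart, below the other libraries, while the intervals of Huh7-C, Hep3B and Huh7 overlapped. SLC30A1 (Entrez 7779; GRCh38 chr1:211571568-211578742, minus strand) had 37 counts in Hep3B (12.8 CPM), 26 in Hep3B-C (5.6 CPM), 67 in Huh7 (14.8 CPM) and 50 in Huh7-C (11.5 CPM). Hep3B-C was again the lowest library, with an interval from 3.66 to 8.21 CPM that lay under those of Huh7 (11.4 to 18.8 CPM), Huh7-C (8.56 to 15.2 CPM) and Hep3B (8.99 to 17.6 CPM).

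**Figure D2:**
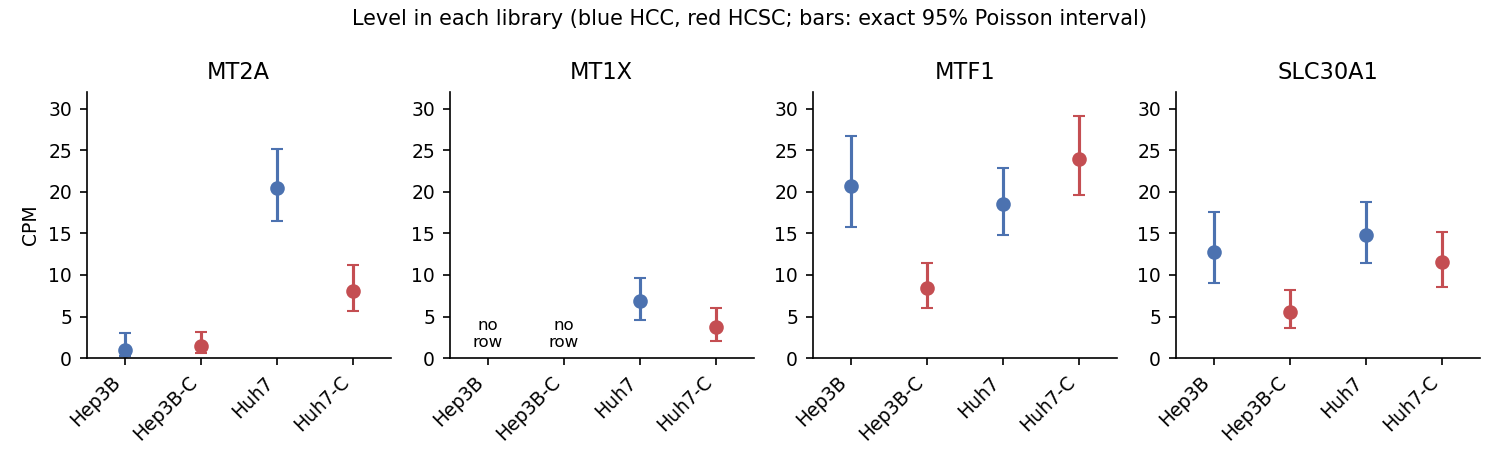
CPM (y axis) of MT2A, MT1X, MTF1 and SLC30A1 in the 4 libraries (x axis), HCC lines in blue and HCSC lines in red, with bars for exact 95% Poisson intervals. MT2A was at 20.5 CPM in Huh7 and 8.08 CPM in Huh7-C against 1.04 and 1.51 CPM in Hep3B and Hep3B-C; MTF1 and SLC30A1 were lowest in Hep3B-C.

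Between the parental lines, the gap in MT2A was the widest of the 3 genes listed for both pairs. MT2A was 19.8-fold higher in Huh7 than in Hep3B, with an interval from 6.56 to 97.7 that rests on 3 counts in Hep3B. Between the HCSC lines it was 5.36-fold higher in Huh7-C than in Hep3B-C (interval 2.34 to 14.3). By contrast, the ratio of Huh7 to Hep3B was 0.894 for MTF1 (interval 0.634 to 1.27) and 1.16 for SLC30A1 (interval 0.763 to 1.78). Both were higher in Huh7-C than in Hep3B-C, MTF1 by 2.86-fold (interval 1.96 to 4.24) and SLC30A1 by 2.06-fold (interval 1.26 to 3.45). Between the HCC lines, then, MT2A differed beyond counting error, and no difference was detectable for MTF1 or SLC30A1 at this depth. These ratios rest on total gene counts, and no other scaling or length correction was run between the parental lines. ATOX1, with 489 bases, was also higher in Huh7 (106 CPM) than in Hep3B (16.2 CPM). COX17, with 423 bases, stood at 28.9 and 21.1 CPM. The part of gene length in the gap of MT2A was not tested.

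Which members differed between an HCSC line and the line it was grown from was asked with the Audic-Claverie test, which sets the counts of a gene in a pair of libraries against Poisson counting noise. A call needed an FDR (Benjamini-Hochberg) no higher than 0.01 together with a 2-fold difference. The test compares the libraries and not the conditions. In Hep3B-C, 2 of the 3 listed members were called down-regulated and none up-regulated, where 30.4% of 15480 genes were called down and 13.2% up, or 43.6% in either direction. MTF1 fell to 0.407 of its level in Hep3B (log2 ratio -1.30, SE 0.3, Audic-Claverie FDR 1.91e-05). SLC30A1 fell to 0.441 of its level (log2 ratio -1.18, SE 0.37, Audic-Claverie FDR 0.0021). MT2A, with 3 and 7 counts, had a log2 ratio of 0.42 (SE 0.93, Audic-Claverie FDR 0.896). The median log2 ratio of the 3 members was -1.18, against -0.68 over all 15480 genes, and with so many genes called down in this pair little can be read from 2 of 3.

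These calls depended on the library scaling and on the trends of the log2 ratio with gene length and GC content. TMM library sizes shifted every log2 ratio of the Hep3B pair by 0.60 and left no member called, with MTF1 at -0.70 and SLC30A1 at -0.59. Over all genes they turned 2043 calls up and 4708 down into 3348 up and 2799 down. Across 11433 genes the log2 ratio in this pair fell with gene length (Spearman -0.433). It rose with GC content, which was the stronger of these correlations (Spearman 0.631 across 11338 genes). The median log2 ratio was 0.62 in the shortest of 10 length classes (145 to 1285 bases) and -1.61 in the longest (6481 to 101515 bases). MTF1, with 7972 bases, lies in the longest class. With the length trend removed its log2 ratio was -0.19 (Audic-Claverie FDR 0.604), so its fall was close to that of other long genes. SLC30A1, with 2018 bases, went the other way, to -1.66 (Audic-Claverie FDR 1.3e-05) with the length trend removed. With GC content taken into account as well it stood at -0.57 (Audic-Claverie FDR 0.172). Removing a trend left the scaling by total gene count in place. Over all genes, 1657 were called up and 4291 down with the length trend removed. With GC and length trends removed, 599 were called up and 3878 down.

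In Huh7-C, 1 of the 4 listed members was called down-regulated and none up-regulated, where 4.15% of 14807 genes were called down and 4.19% up, or 8.33% in either direction. The median log2 ratio of the 4 was -0.61, against 0.07 over all 14807 genes. MT2A fell from 20.5 to 8.08 CPM, a 2.52-fold decrease (log2 ratio -1.33, SE 0.28, interval -1.95 to -0.77, Audic-Claverie FDR 5.44e-06). Only 3.79% of genes with at least 20 counts in the pair had a log2 ratio as low. The summed hepatocyte markers also stood lower in Huh7-C (26487 CPM) than in Huh7 (49740 CPM), mostly through SERPINA1 (183846 and 74907 counts), but 3 of the 7 had log2 ratios above 0, with ALB called up (482 to 1156 counts). Their part in this result was not tested. MT1X had a log2 ratio of -0.87 (SE 0.44, interval -1.86 to 0.03) that did not pass the test (Audic-Claverie FDR 0.109). MTF1 had a log2 ratio of 0.37 (interval -0.05 to 0.81, Audic-Claverie FDR 0.196) and SLC30A1 one of -0.35 (interval -0.91 to 0.19, Audic-Claverie FDR 0.355).

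Gene length bore on the metallothioneins in this pair too, in the opposite sense. Over 11134 genes the log2 ratio rose with length (Spearman 0.315), from a median of -0.23 in the shortest length class to 0.46 in the longest. MT2A and MT1X, at 418 and 404 bases, are shorter than most genes of the shortest class, whose median length was 959 bases. With the length trend removed the log2 ratio of MT2A was -0.88 (Audic-Claverie FDR 0.00554), which kept its direction but fell short of 2-fold, and that of MT1X was -0.41. MTF1 moved from 0.37 to -0.02.

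**Figure D3:**
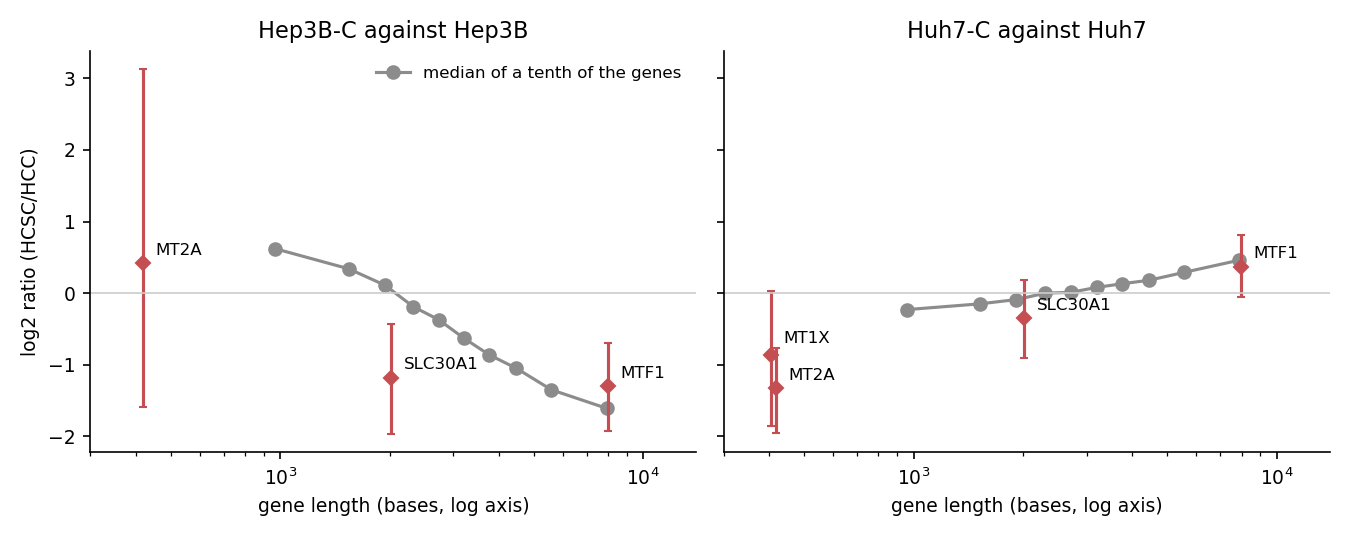
Log2 ratio (HCSC/HCC, y axis) against gene length (x axis, log scale) in each pair. Grey points are medians of the genes with at least 20 counts in 10 length classes, red diamonds are the members with exact 95% intervals; MTF1 lies near the grey line in both pairs, and MT2A lies below the shortest class in Huh7-C.

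**Figure D4:**
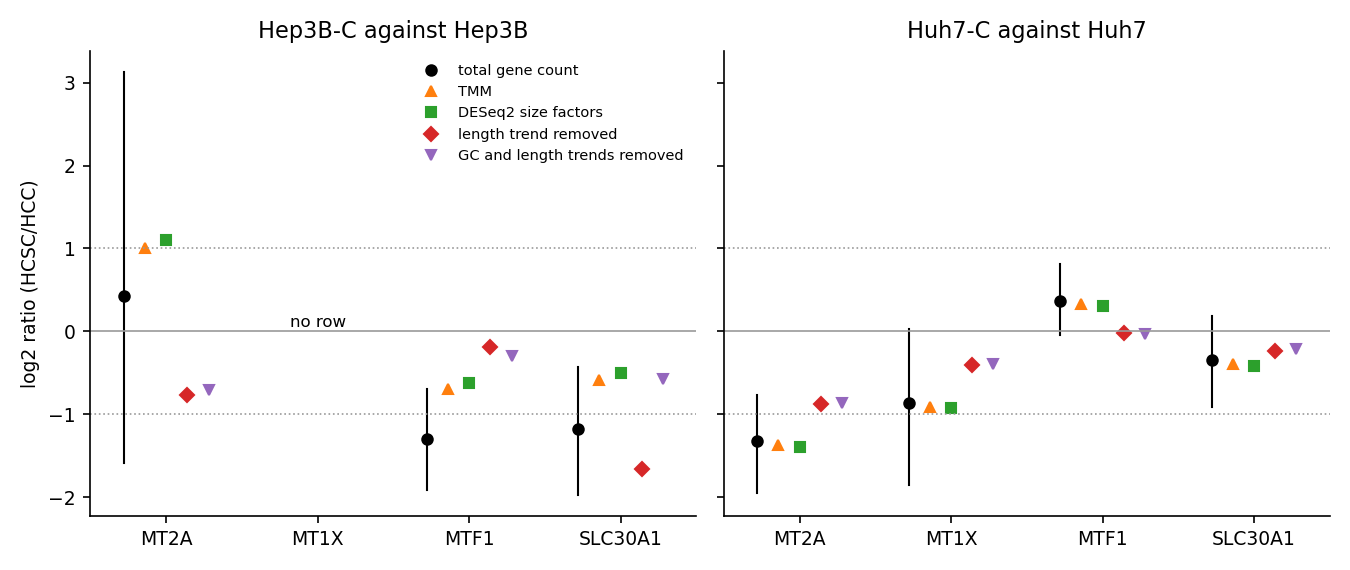
Log2 ratio (HCSC/HCC, y axis) of each member (x axis) in each pair under 5 ways of scaling, with the exact 95% interval on the value by total gene count and dotted lines at 2-fold. In Huh7-C all 5 values of MT2A lie below 0, from -1.40 to -0.87, while in Hep3B-C those of MT2A fall on both sides of 0.

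HCSC and HCC were also compared over both parental lines with the edgeR quasi-likelihood test, with the parental line as a block and 1 residual degree of freedom. None of the 4 members was called at an adjusted p of at most 0.05, where 9 of 11691 genes (0.077%) were, and none had an unadjusted p under 0.05 in edgeR or in DESeq2. The log2 fold-changes were -0.52 for MT2A, -0.90 for MT1X, -0.28 for MTF1 and -0.60 for SLC30A1, each with an edgeR adjusted p of 0.999. In this fit MT1X was taken as 0 counts in the Hep3B pair, so its value rests on the Huh7 pair. A change shared by both HCSC lines was therefore not detectable for any of the 4 with these libraries.

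The other zinc transporters were examined as lists. SLC30A proteins move zinc out of the cytosol, out of the cell or into vesicles, and SLC39A proteins move it in. Of the 9 other SLC30A genes, 8 were listed in each pair. In Hep3B-C, 4 of them were down-regulated and 0 up-regulated (median log2 ratio -1.42, against -0.68 over all 15480 genes, of which 30.4% were called down and 13.2% up). These were SLC30A10, a manganese exporter (176 to 35 counts, log2 ratio -2.99, SE 0.27), SLC30A9 (523 to 225 counts, log2 ratio -1.90, SE 0.11), SLC30A6 of the Golgi (59 to 32 counts, log2 ratio -1.55, SE 0.31) and SLC30A7, also of the Golgi (136 to 106 counts, log2 ratio -1.04, SE 0.19). The median includes SLC30A4 and SLC30A8, each with 2 counts in Hep3B and 1 in Hep3B-C, under the floor. Over the 5 exporters with at least 20 counts it was -1.55, against -0.55 over all such genes. With TMM library sizes only 2 of these remained past the threshold, and SLC30A7 turned to 0.09 with the length trend removed. With GC and length trends removed 2 were called down (SLC30A10 and SLC30A9). The median of the list was then -0.29, against -0.54 over genes with at least 20 counts.

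In Huh7-C, 2 of the 8 were down-regulated and 0 up-regulated (median log2 ratio -0.11, against 0.07 over all 14807 genes, of which 4.15% were called down and 4.19% up). SLC30A10 fell there too, from 59 to 14 counts (log2 ratio -1.97, SE 0.42). SLC30A8, the zinc transporter of insulin granules, went from 33 to 2 counts (log2 ratio -3.68, SE 0.95, Audic-Claverie FDR 3.29e-07). It has fewer counts than the rule for named genes asks for and was named after its values had been seen. SLC30A10 was the only exporter called in both pairs, and it was called under each scaling and trend correction run in both. No test with an assumed spread between replicates was run for it. DUSP1 and the hepatocyte marker TF were also called down in both pairs. The share of all genes called down in both pairs was not worked out.

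Among 14 importers, 12 were listed in each pair. In Hep3B-C, 3 were up-regulated and 2 down-regulated (median log2 ratio -0.09, against -0.68 over all genes). These 5 of 12 are close to the 43.6% of all genes called in this pair. SLC39A5, an importer of the basolateral membrane, rose from 94 to 1370 counts, or 32.5 to 295 CPM (log2 ratio 3.18, SE 0.15). SLC39A4, the intestinal zinc importer, rose from 14 to 103 counts (log2 ratio 2.16, SE 0.4), and SLC39A3 from 83 to 365 counts (log2 ratio 1.45, SE 0.17). SLC39A3 is named beyond the limit of 5 genes per list, after its values had been seen. SLC39A6 fell from 215 to 66 counts (log2 ratio -2.38, SE 0.2) and SLC39A10 from 613 to 233 counts (log2 ratio -2.07, SE 0.11). With TMM library sizes 4 importers were called up and 2 down, and with GC and length trends removed 1 up (SLC39A5) and 2 down, no longer with SLC39A10 (log2 ratio -0.67) among them. In Huh7-C the 2 calls were SLC39A10 as up-regulated (40 to 118 counts, log2 ratio 1.62, SE 0.26) and SLC39A13 as down-regulated (129 to 41 counts, log2 ratio -1.58, SE 0.26). Over all genes of this pair 4.19% were called up and 4.15% down, and the median log2 ratio of the 12 was -0.06, against 0.07. SLC39A14, the main importer induced in liver during inflammation, had the highest level of the list per gene length in Huh7, at 215.5 RPKM, and did not reach 2-fold in either pair (log2 ratio -0.31 and -0.45).

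Of 9 copper handling genes, 3 rose and 2 fell in Hep3B-C (median log2 ratio -0.21, against -0.68 over all genes), and 0 were called in Huh7-C (median log2 ratio -0.16, against 0.07 over all genes) by the Audic-Claverie test with its 2-fold limit. Over all genes, 43.6% were called in Hep3B-C and 8.33% in Huh7-C, and the difference between the pairs was not tested for this list. The copper chaperones ATOX1 (47 to 214 counts, log2 ratio 1.49, SE 0.23) and CCS (36 to 211 counts, log2 ratio 1.85, SE 0.26) rose in Hep3B-C, as did SOD1, the copper and zinc superoxide dismutase that CCS loads (186 to 846 counts, log2 ratio 1.5, SE 0.12). CP, which encodes the plasma copper protein ceruloplasmin, fell from 3959 to 245 counts (log2 ratio -4.69, SE 0.09), and the copper pump ATP7A from 121 to 20 counts (log2 ratio -3.25, SE 0.34). The genes that rose are short, with 489 bases for ATOX1, 965 for SOD1 and 1032 for CCS, and none of them was called with the length trend removed, while SOD1 was called with GC and length trends removed (log2 ratio 1.18). CP and ATP7A were called under each of these corrections. Over the list, 0 genes were called up and 3 down with the length trend removed, and 2 up and 2 down with GC and length trends removed.

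**Figure D5:**
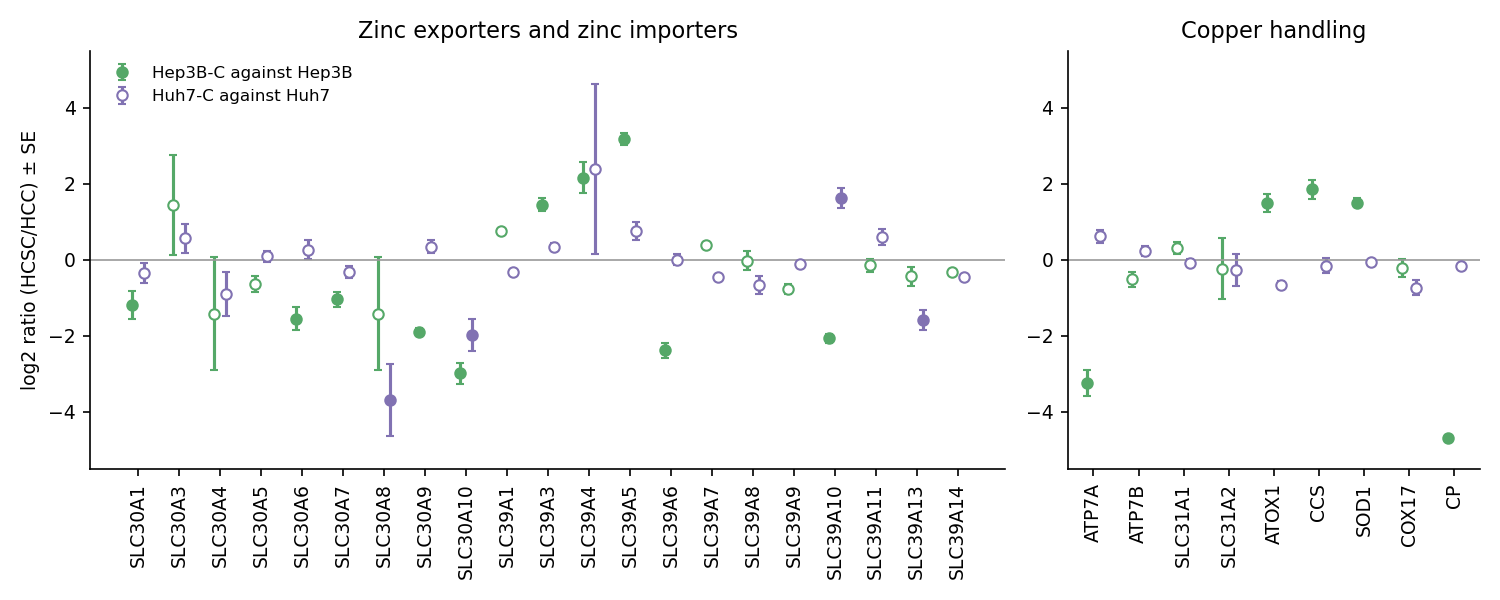
Log2 ratio (HCSC/HCC, y axis) with its Poisson SE for SLC30A1, the other zinc exporters, the zinc importers (left) and the copper handling genes (right), Hep3B pair in green and Huh7 pair in purple; filled points passed the Audic-Claverie test and 2-fold. SLC39A5 reached 3.18 and CP -4.69 in Hep3B-C, and SLC30A10 was below 0 and filled in both pairs.

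Genes whose pattern over the 4 libraries was most like that of the summed metallothioneins were ranked by the distance between log2(CPM + 1) profiles, each centred on its mean. Among 9907 genes, whose median distance was 3.36, the closest were ACSL5 (0.18), TIAM1 (0.24), TUBAL3 (0.26), HOXD13 (0.27) and SLC25A15 (0.33). ACSL5, a long-chain fatty acid activating enzyme, had 40 and 93 counts in the HCC and HCSC lines of the Hep3B pair and 984 and 461 in those of the Huh7 pair. SLC25A15, the mitochondrial ornithine carrier, had 60, 96, 1057 and 431 counts in the same order. TIAM1 and HOXD13 had no row in the Hep3B pair and were taken as 0 counts there. With 4 points, this likeness describes the libraries and carries no test.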

How the data were processed

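The authors deposited raw counts for each gene in each of 4 mRNA libraries (Illumina Genome Analyzer II). NextGENe was their aligner, NCBI Build 36.1 their reference, and quality filtering came first. The version of the aligner, the annotation and the handling of multiply matching reads were not given in the sources used here. No gene was listed with 0 counts in both libraries of a pair, and genes were joined by Entrez ID. Groups and parental lines came from the sample labels.

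Ratios (HCSC/HCC) used counts per total gene count with 0.5 added, and SE were those of Poisson counts. Each pair was tested with the Audic-Claverie test (tail doubled, Benjamini-Hochberg over all genes of the pair), after the study's kind of test and thresholds. The numbers called were not those of the study. They were far lower in Huh7-C (620 up and 614 down) and somewhat higher in Hep3B-C (2043 up and 4708 down). The reason was not tested. Ratio intervals were exact binomial (Clopper-Pearson) and level intervals exact Poisson. Intervals of the difference between the pairs were normal approximations from the SE of both log2 ratios. Both groups were compared with edgeR 4.0.16 (TMM, filterByExpr), the parental line being a block because each HCSC line was grown from its parental line. With 2 libraries a group, the deviations from the group mean correlated between Hep3B and Hep3B-C (Pearson 0.532 across 12614 genes). Trends with length and GC content (GENCODE release 29, closest transcript in length, available for at least 99.2% of genes in the fit) were removed by lowess. Each trend was centred on its median first, so that the scaling by total gene count was kept. DESeq2 1.42.0, R 4.3.3, Python 3.11.15 and scipy 1.17.1 were used. Other library sizes, tests, count filters, added counts and trend corrections, and leaving out each library, were tried as alternatives. The tests were also run on simulated counts, Poisson for the pair test and negative binomial for edgeR. These held no trend with length or GC content and no effect of the parental line. They therefore do not show how the tests behave under such trends. Gene Ontology columns in the files were not used. Coordinates are GRCh38 and serve as annotation only, since reads were aligned to an older build.

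The members and lists were chosen with earlier results of these data known. Named list genes were those called in a pair with at least 50 counts in a library of it, up to 5 per list by size of the log2 ratio. The 5 genes closest in pattern needed at least 50 counts in a library.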

Additional observations from a re-analysis of the deposited data

Results flagged for a closer look

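MT2A and MTF1 were singled out because their log2 ratios had opposite signs in the HCSC lines. With 1 library per line the difference was not tested against replicates. For MT2A, Hep3B-C had a log2 ratio of 0.42 and Huh7-C one of -1.33, which makes a difference of 1.75 with a counting interval from -0.16 to 3.66 that includes 0. For MTF1, the values were -1.30 (Hep3B-C) and 0.37 (Huh7-C), which makes a difference of -1.67 with a counting interval from -2.38 to -0.96. With the length trend removed, the values of MTF1 were -0.19 and -0.02. SLC30A1 was negative in both lines (-1.18 and -0.35), with a difference of -0.83 and a counting interval from -1.72 to 0.06.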

How the results depend on the processing

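Of the 2 members called in Hep3B-C, 0 remained with TMM library sizes, 0 with DESeq2 size factors, 1 (SLC30A1) with the length trend removed, 0 with GC and length trends removed and 0 in edgeR with an assumed BCV of 0.4 (spread between replicates). The 1 member called in Huh7-C (MT2A) was lost (0 called) with the length trend removed, with GC and length trends removed and at that BCV, and kept with both other library sizes. An exact binomial test, a filter of 10 counts, 5 added to each count, the RPKM ratio and 2-fold alone left both numbers as they were. The log2 ratio of MT2A in Hep3B-C turned to -0.10 with 5 added to each count, -0.77 with the length trend removed and -0.71 with GC and length trends removed, and that of MTF1 in Huh7-C to -0.02 and -0.03 under the trends. The summed metallothionein log2 ratio of 0.42 in Hep3B-C ran from -0.77 to 1.10 under the 5 alternatives run for it, on both sides of 0. Its counting interval (-1.59 to 3.13) is too wide to tell these values apart. In Huh7-C the value of -1.21 went to -0.76 with the length trend removed and -0.75 with GC and length trends removed. Both kept the direction, fell short of 2-fold and lay near the end of the counting interval (-1.72 to -0.73). Among alternatives added after the data had been seen, SLC30A7 in Hep3B-C turned to 0.09 with the length trend removed and 0.67 with GC and length trends removed, and under the latter CCS turned to -0.17 and ATOX1 to -0.34.

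In the edgeR test over both lines, 0 members were called under every alternative run. Without the replicate block, which pairs the lines, the log2 fold-changes were -1.17 (MT2A), -0.93 (MT1X), -0.16 (MTF1) and -0.56 (SLC30A1), and edgeR called 0 genes in all, with 124 at an unadjusted p under 0.05. Over all genes the 9 calls became 14 with no count filter, 37 with the length trend removed, 6 with total gene counts as library sizes, 11 in DESeq2, and 0 to 21 with a library left out. MTF1 turned to 0.06 with the length trend removed in the fit with the block. Leaving out each library in turn, also without the block, gave ranges from -6.82 to 5.88 for MT1X, -2.66 to 2.43 for MT2A, -0.95 to 0.37 for MTF1 and -1.04 to -0.19 for SLC30A1. Those fits compare different parental lines, and a lone sample was assumed to vary like the other group. With 3 and 7 counts, depth limits what can be said of MT2A in the Hep3B pair.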

Other observations

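The glucocorticoid receptor and its common targets were examined because glucocorticoids induce metallothioneins. In Hep3B-C, 0 of the 7 genes were up-regulated and 3 down-regulated (median log2 ratio 0.13, against -0.68 over all genes, of which 13.2% were called up and 30.4% down). NR3C1, the receptor, fell from 108 to 37 counts (log2 ratio -2.21, SE 0.27), SGK1 from 655 to 95 counts (log2 ratio -3.46, SE 0.16) and DUSP1 from 91 to 17 counts (log2 ratio -3.07, SE 0.38). The other 4 genes had log2 ratios above 0 and were not called. These were PER1 (29 to 90 counts, log2 ratio 0.94), TSC22D3 (5 to 15 counts, 0.81), FKBP5 (0.16) and TAT (0.13). With TMM library sizes 1 gene of the list was called up beside the 3 down, with the length trend removed 2 up and 3 down, and with GC and length trends removed NR3C1 stood at -0.68 and was not called. In Huh7-C, 3 were up-regulated and 1 down-regulated (median log2 ratio -0.17, against 0.07 over all genes, of which 4.19% were called up and 4.15% down). FKBP5, a chaperone of the receptor and a common target, rose from 178 to 449 counts (log2 ratio 1.40, SE 0.13), and the clock gene PER1 from 55 to 122 counts (log2 ratio 1.21, SE 0.23). With GC and length trends removed PER1 stood at 0.97 and was not called. TSC22D3 rose from 5 to 24 counts (log2 ratio 2.22, SE 0.68), and it was named after its values had been seen. DUSP1 fell there as well, from 432 to 157 counts (log2 ratio -1.39, SE 0.13). NR3C1 had 289 and 245 counts in the Huh7 pair (log2 ratio -0.17, SE 0.13) and was not called. SGK1 (20 to 13 counts, log2 ratio -0.54) and TAT (28 to 16 counts, log2 ratio -0.72) were not called in Huh7-C either.

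MTL5, a testis gene of metallothionein-like sequence outside the cluster, had 56 and 62 counts in the Hep3B pair and 36 and 31 in the Huh7 pair, and was not called in either pair (log2 ratio -0.53, SE 0.26, and -0.15, SE 0.35).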
